A study of Mus musculus with 16 samples.

Results

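The inhibin, activin and follistatin genes were followed across the cell types of the neonatal mouse testis. They were 8 of the 30451 genes in the UMI table, chosen by name: the ligand subunit genes *Inha*, *Inhba* and *Inhbb*, the binding protein gene *Fst*, the receptor genes *Acvr1b*, *Acvr2a* and *Acvr2b*, and the coreceptor gene *Tgfbr3*. All 8 had at least 100 UMIs (unique molecular identifiers, each counting 1 captured transcript) over the gated cells, from 590 for *Acvr1b* to 132112 for *Inha*. The testes came from mice at postnatal day 2, either wild type or with a conditional *Ddx5* knockout made by crossing floxed *Ddx5* with Mvh-Cre. Mvh (*Ddx4*) is a germ cell gene, so Cre was driven in germ cells. Which *Ddx5* alleles the somatic cells of the knockout testis carried is not stated. Whole testes were dissociated with TrypLE and captured with a droplet 3′ kit, and GFP and CRE sequences were added to the reference. The labels list 16 samples, 8 numbered libraries per genotype, but the barcodes of the table carry only 1 suffix per genotype, so each genotype counted as 1 library, no test was possible, and no p-value is given.

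Inhibins and activins are dimers of the TGF-beta superfamily. Activins are dimers of beta subunits, while inhibins pair the alpha subunit with a beta subunit and oppose activin action. Activins bind the type II receptors ACVR2A and ACVR2B, which recruit the type I receptor ACVR1B and signal through SMAD2 and SMAD3, follistatin traps activin outside the cell, and betaglycan, the product of *Tgfbr3*, lets inhibin compete for the type II receptors. In the testis, inhibin B is the inhibin of Sertoli cells, the somatic cells that surround the germ cells, and it restrains FSH release from the pituitary.

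Of 12186 barcodes, 11279 cells passed the filter of 2000 or more genes with no more than 10% of UMIs from mitochondrial genes, 6329 in the wild-type library and 4950 in the library labelled *Ddx5* knockout, with median depths of 11170 and 11668.5 UMIs per cell. Cells were gated on UMIs of type-defining genes. In the wild-type library and the library labelled *Ddx5* knockout, respectively, there were 2256 and 1635 Sertoli cells (at least 3 *Amh* UMIs), 177 and 143 Leydig cells (at least 20 UMIs of *Cyp11a1*, *Cyp17a1* and *Hsd3b1* together), 764 and 524 peritubular myoid cells (at least 5 *Acta2* and 2 *Myh11* UMIs), and 3590 and 3005 stroma cells (at least 1 *Pdgfra* UMI and at most 2 of *Amh*). There were 31 and 23 macrophages (at least 5 UMIs of *C1qa*, *C1qb* and *C1qc* together), and 125 and 12 germ cells (a UMI of at least 3 of *Dazl*, *Ddx4*, *Mael* and *Stk31*). A cell could pass several gates: 1360 cells passed 2 gates, 1152 of the 1288 myoid cells were also stroma cells, and all 39 germ cells that also passed the Sertoli gate were in the wild-type library. Markers not used by the gates were highest in their own gate in both libraries for 7 of 7 Sertoli, 5 of 6 Leydig, 4 of 5 myoid, 5 of 6 stroma, 6 of 6 macrophage and 6 of 6 germ genes. The targeted gene went against the label: *Ddx5* stood at 1152 CPM (UMIs per 1000000 UMIs) in wild-type germ cells and 1736 CPM in those labelled *Ddx5* knockout, a ratio of 1.51 (95% interval 1.40 to 1.62). CRE had 0 UMIs in the wild-type library and 20 in the other. The libraries shared 12 cell barcodes.

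Where a range follows a CPM value in parentheses, it is the exact 95% Poisson interval of the summed UMIs. Where it follows a ratio, it is the exact conditional binomial interval, and where it follows a share of cells, the Clopper-Pearson interval. All of them cover counting error only and say nothing of differences between animals. Those of CPM values and ratios treat UMIs as independent, so they also leave out the spread between cells of a gate. Values come as a pair, wild type first and the library labelled *Ddx5* knockout second.

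The beta subunit genes took different cell types, as described below, and their promoter windows (250 bases before to 50 after the RefSeq start, GRCm38.p6) are shown for comparison. A link between these sequences and the levels was not tested. *Inhbb* lies on chr1:119415465-119422248 on the minus strand, and its window, chr1:119422199-119422498, had a GC content of 64.3%. *Inhba* lies on chr13:16011851-16031621 on the plus strand, and its window, chr13:16011601-16011900, had a GC content of 47.7%, on the other side of the median of 52.7% over 32851 mouse promoters.
Inhbb: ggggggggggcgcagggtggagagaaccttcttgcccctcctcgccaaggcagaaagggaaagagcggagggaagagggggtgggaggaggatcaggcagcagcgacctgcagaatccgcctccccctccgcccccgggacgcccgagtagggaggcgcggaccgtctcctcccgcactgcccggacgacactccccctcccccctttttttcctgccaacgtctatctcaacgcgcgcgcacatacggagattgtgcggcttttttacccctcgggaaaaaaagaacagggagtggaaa
Inhba: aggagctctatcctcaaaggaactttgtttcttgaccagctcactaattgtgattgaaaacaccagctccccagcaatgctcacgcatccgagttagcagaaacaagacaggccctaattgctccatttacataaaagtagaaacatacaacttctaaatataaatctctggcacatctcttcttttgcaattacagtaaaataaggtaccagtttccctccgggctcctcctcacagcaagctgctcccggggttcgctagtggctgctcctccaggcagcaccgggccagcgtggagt
A search on both strands for CAAGGTCA (a site of NR5A1, the steroidogenic nuclear receptor), TGACGTCA (the cAMP response element) and a variant of the last, TGCGTCA, found no match in either window, so no letters are in capitals. The GATA factor motif, AGATAA, was not found there either. Of the 8 genes, 6 had a RefSeq window, and none of the 6 held a match. The RefSeq start of *Inha* lies 532 bases inside its GENCODE gene, so its window does not cover the bases before the annotated gene start. Over all promoters, 1.56%, 1.79%, 2.12% and 11.2% held these motifs, in the same order. The other genes lie on chr1:75507077-75510366 (*Inha*), chr13:114452290-114458951 (*Fst*), chr15:101174067-101213684 (*Acvr1b*), chr2:48814109-48903269 (*Acvr2a*), chr9:119402118-119434995 (*Acvr2b*) and chr5:107106570-107289629 (*Tgfbr3*), in GENCODE vM21 on GRCm38. *Tgfbr3* shares exon sequence with *Gm43422* on the same strand, so reads in that stretch could have been assigned to either gene or to none. *Fst* shares exon sequence with *Gm47040* and *Acvr2a* with *Orc4*, both on the other strand, and Cell Ranger counts reads in the sense direction.

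**Figure D1:**
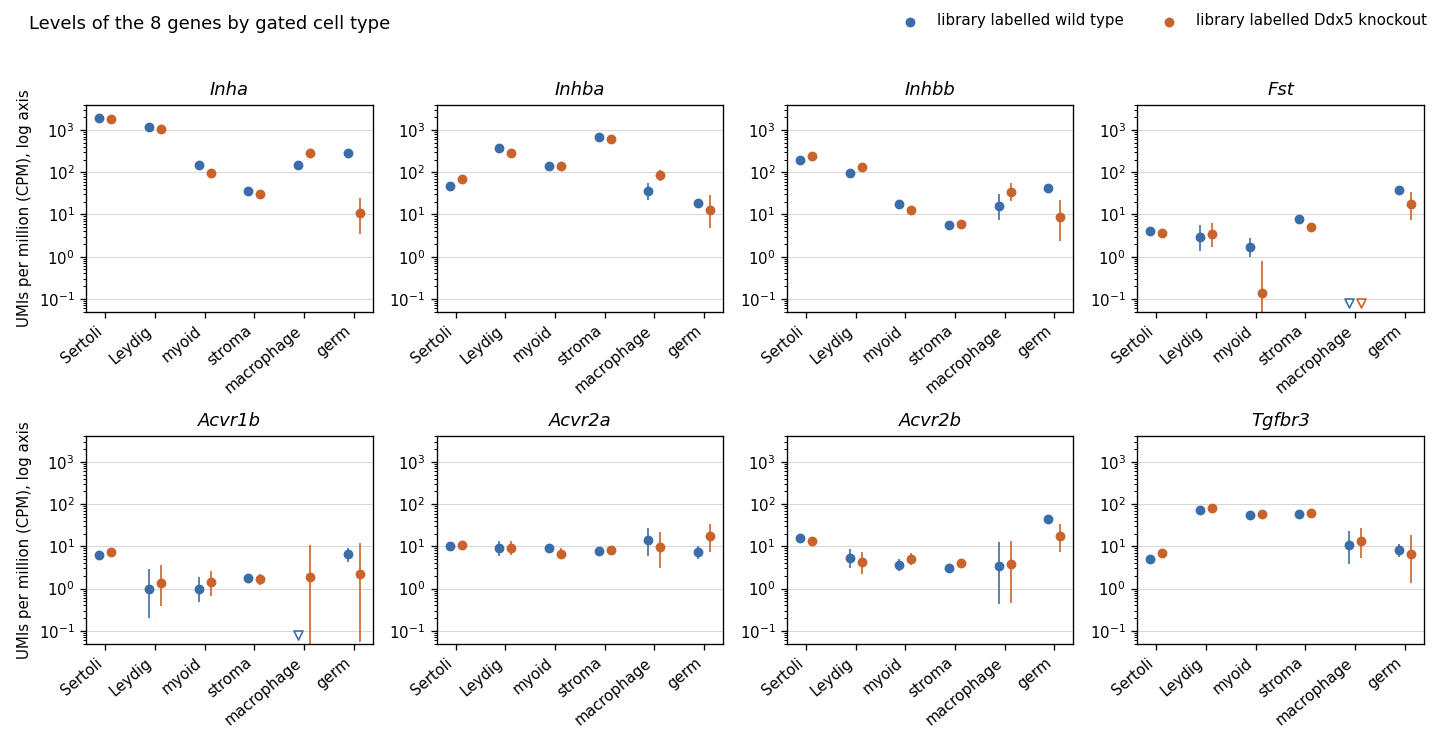
Levels of the 8 genes by gated cell type. Each panel plots CPM (log axis) against the gate, with 1 point per library and exact 95% Poisson intervals, and open triangles at the foot mark 0 UMIs. *Inha* and *Inhbb* were highest in Sertoli cells, *Inhba* in stroma, *Tgfbr3* in Leydig cells, and *Fst* and *Acvr2b* in germ cells, while *Acvr2a* lay between 6.74 and 17.3 CPM everywhere.

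Among the 8 genes, 6 were highest in the same cell type in both libraries, where 64.4% of the 15548 genes with at least 100 UMIs were. *Inha* and *Inhbb* were highest in Sertoli cells (11% of all genes), *Inhba* in stroma (8.63%), *Tgfbr3* in Leydig cells (11.8%), and *Fst* and *Acvr2b* in germ cells (17.3%). Only *Fst* stood at least 2-fold above each other cell type in both libraries. That was true of 16.8% of genes for some cell type and of 6.36% for germ cells, or of 13.6% and 4.8% where a cell type with 0 UMIs was set at 3 UMIs, under which *Fst* kept its place. The count of 1 of 8 was therefore not above the share over all genes.

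*Inha*, which encodes the alpha subunit shared by inhibin A and inhibin B, was a transcript of Sertoli and Leydig cells. In Sertoli cells it stood at 1955 CPM (1941 to 1970) and 1828 CPM (1812 to 1844), and all 2256 and all 1635 cells had at least 1 *Inha* UMI. In Leydig cells it stood at 1202 CPM (1164 to 1242) and 1084 CPM (1046 to 1123). Both libraries thus had the same order, with the Sertoli level 1.63-fold (1.57 to 1.68) and 1.69-fold (1.63 to 1.75) above the Leydig level. Stroma cells were lowest in wild type at 35.4 CPM (33.6 to 37.3), and had 30.5 CPM (28.6 to 32.4) in the other library. After each cell was thinned to 5000 UMIs, 99.5% and 99.7% of Sertoli cells, 92.1% and 90.1% of Leydig cells, and 9.34% and 7.73% of stroma cells kept an *Inha* UMI. Before thinning, the shares in Leydig cells were 97.7% and 97.2%, at median depths of 14732 and 17355 UMIs, and in stroma cells 16.5% and 14.2%, at 9838.5 and 9933 UMIs.

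In the other 3 cell types *Inha* was below the Leydig level. Myoid cells had 150 and 94.6 CPM and macrophages 149 and 284 CPM. Germ cells had 293 CPM in wild type. Under the *Ddx5* knockout label they were the lowest cell type, with 10.8 CPM from 5 UMIs. Without the cells that also passed the Sertoli gate, myoid cells had 21.4 and 12.4 CPM, which was below the stroma level in both libraries, macrophages had 74.3 and 31.5 CPM, and wild-type germ cells 32.4 CPM. The germ gate of the other library held no such cells. The Leydig level stayed high under the same restriction, at 1120 and 990 CPM. The summed level of the 7 Sertoli markers moved alongside: in the germ gate of the wild-type library it was 1085 CPM with and 134 CPM without these cells.

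*Inhbb*, which encodes the beta B subunit of inhibin B and activin B, followed the same order at the top. Sertoli cells had 199 CPM (194 to 203) and 242 CPM (236 to 248), and Leydig cells 94.3 CPM (83.7 to 106) and 136 CPM (123 to 151). Sertoli cells were 2.11-fold (1.87 to 2.38) and 1.77-fold (1.60 to 1.97) above Leydig cells. Stroma cells had 5.59 CPM (4.87 to 6.39) and 6.03 CPM (5.22 to 6.93), the lowest level with the gates as drawn, although germ cells were not separated from them in the library labelled *Ddx5* knockout. In cells thinned to 5000 UMIs, the share with an *Inhbb* UMI was 60.8% and 66.2% in Sertoli cells, 29.4% and 38.7% in Leydig cells, and 2.19% and 2.14% in stroma cells. Germ cells had 41.6 and 8.63 CPM, and the wild-type value fell to 5.15 CPM (14 UMIs) when cells of the Sertoli gate were left out. Myoid cells had 17.8 and 12.6 CPM, and macrophages 15.8 and 34.3 CPM from 9 and 18 UMIs. Without cells of the Sertoli gate, myoid cells had 4.13 CPM (2.91 to 5.69) and 1.38 CPM (0.631 to 2.62) from 37 and 9 UMIs, below the stroma values although the wild-type intervals overlapped, and macrophages kept 2 UMIs and 1 UMI. The ratio between the libraries in myoid cells was then 0.334 (0.142 to 0.705).

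*Inhba*, which encodes the beta A subunit of inhibin A, activin A and, with beta B, activin AB, had another order. Stroma cells had 670 CPM (662 to 679) and 628 CPM (619 to 636), and Leydig cells 380 CPM (358 to 402) and 279 CPM (260 to 299). Stroma stood 1.77-fold (1.66 to 1.88) and 2.25-fold (2.10 to 2.42) above Leydig cells. Myoid cells followed with 139 and 142 CPM, although most of them also passed the stroma gate, and germ cells were lowest with 19.0 and 13.0 CPM. Macrophages had 35.2 and 83.8 CPM from 20 and 44 UMIs. Among thinned cells, 76.5% and 79.3% of stroma cells, 70.1% and 65.5% of Leydig cells, and 8.67% and 12.3% of Sertoli cells had an *Inhba* UMI. Before thinning these shares were 85.1% and 88.3%, 88.1% and 83.2%, and 14.1% and 18.7%.

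Sertoli cells had 48.3 CPM (46.0 to 50.5) and 70.2 CPM (67.2 to 73.3) of *Inhba*, and this level rested on a small group of cells. Scrublet called 221 and 230 Sertoli cells as doublets, and without them *Inhba* in Sertoli cells was 6.58 CPM (5.71 to 7.55) and 8.01 CPM (6.88 to 9.26). The summed level of 6 stroma markers in the same cells went from 519 and 783 CPM to 81.5 and 95.6 CPM. *Inha* and *Inhbb* in Sertoli cells rose slightly under that removal, to 2092 and 1993 CPM and to 209 and 258 CPM.

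Within the stroma gate, *Inhba* was uneven. This split was chosen after the data were seen and is a description. Cells of the Leydig gate outside the myoid gate were left out, and cells with UMIs of both marker sets named here counted as other cells. Stroma cells that also passed the myoid gate (674 and 478 cells) had 148 and 148 CPM. Cells with at least 3 UMIs of *Tbata*, *Cyp26b1* and *Smoc2* together (774 and 566 cells) had 599 CPM (583 to 616) and 509 CPM (491 to 528). The 32 and 25 cells with at least 3 UMIs of *Lum*, *Dpt* and *Aspn* together had 740 CPM (636 to 856) and 642 CPM (542 to 755), and the 2069 and 1909 other cells 913 CPM (900 to 926) and 822 CPM (809 to 834). Both libraries gave the same order of these groups. *Tgfbr3* did not follow it, with 60.7 and 61.3 CPM in the cells shared with the myoid gate and 60.1 and 63.5 CPM in the other cells.

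**Figure D2:**
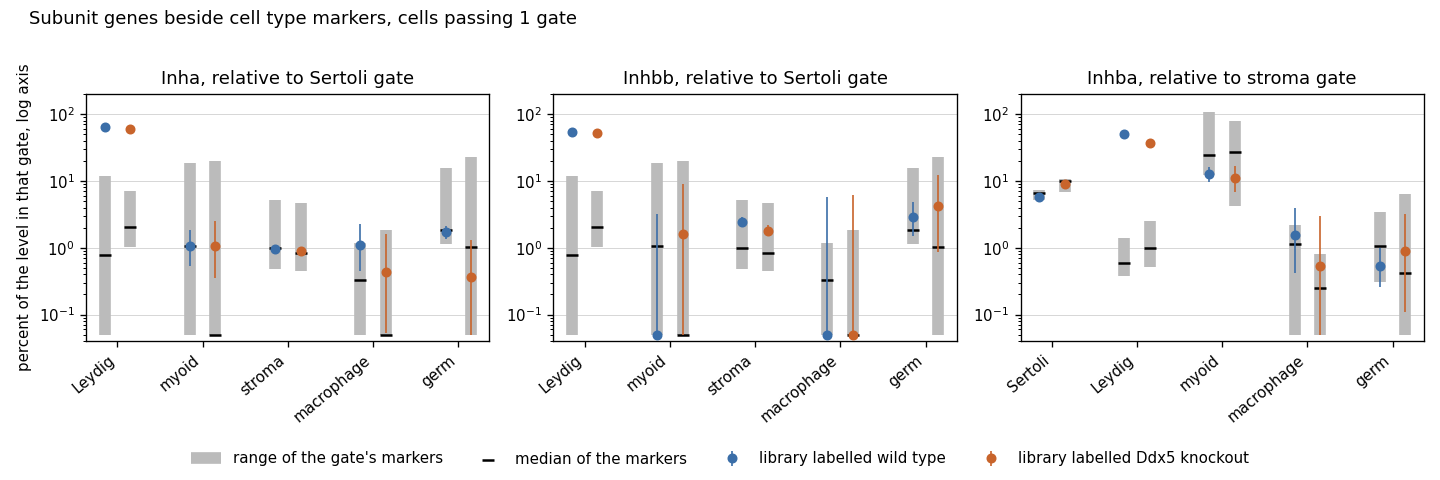
Subunit genes beside cell type markers. The log axis gives the level in a cell type as a percent of that in the Sertoli gate (*Inha*, *Inhbb*) or the stroma gate (*Inhba*), in cells passing 1 gate. Points with 95% intervals are the genes, grey bars the range and black dashes the median of the markers, and values of 0 are drawn at 0.05. In Leydig cells all 3 subunit genes stood above every marker.

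To set these levels against transcripts carried over from other cells, each subunit gene was compared with the markers of its highest cell type, over cells that passed 1 gate only. In such Leydig cells, *Inha* stood at 63.8% (61.2 to 66.4) and 60.05% (57.4 to 62.8) of its Sertoli level. The 7 Sertoli markers had medians of 0.783% and 2.02% of their own Sertoli levels there, and the highest was *Dhh* at 11.9% and *Rhox8* at 7.05%. *Inhbb* in Leydig cells stood at 54.9% (47.6 to 62.9) and 53.0% (46.3 to 60.5), likewise above 7 of 7 markers in both libraries. *Inhba* in Leydig cells stood at 49.6% (46.2 to 53.3) and 36.5% (33.3 to 39.9) of its stroma level, where the highest of the 6 stroma markers was *Ogn* at 1.40% and 2.50%. The remaining levels lay among the markers: *Inha* in stroma was 0.942% and 0.885% of its Sertoli level beside marker medians of 0.993% and 0.830%, and *Inhba* in Sertoli cells was 5.67% and 9.13% of its stroma level beside marker medians of 6.64% and 9.94%. For *Inhbb* in stroma, at 2.42% and 1.80%, 2 and 3 of the 7 markers were higher.

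The balance of beta subunit transcripts differed between the cell types. Of *Inhba* and *Inhbb* UMIs together, *Inhba* made up 19.5% (18.7 to 20.4) and 22.5% (21.6 to 23.4) in Sertoli cells, 80.1% (77.9 to 82.1) and 67.2% (64.4 to 69.8) in Leydig cells, and 99.2% (99.1 to 99.3) and 99.0% (98.9 to 99.2) in stroma cells. Without called doublets, a setting added with the data known, the Sertoli share was 3.05% (2.65 to 3.49) and 3.01% (2.59 to 3.47), the Leydig share 80.1% and 70.2%, and the stroma share 99.3% and 99.2%. These are shares of captured transcripts, and the 3′ capture of the genes may differ. *Inha* UMIs outnumbered beta subunit UMIs 7.92-fold and 5.86-fold in Sertoli cells (9.69-fold and 7.49-fold without called doublets) and 2.54-fold and 2.61-fold in Leydig cells. In stroma cells the excess lay with the beta subunits, with 19.1 and 20.8 beta subunit UMIs for each *Inha* UMI.

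**Figure D3:**
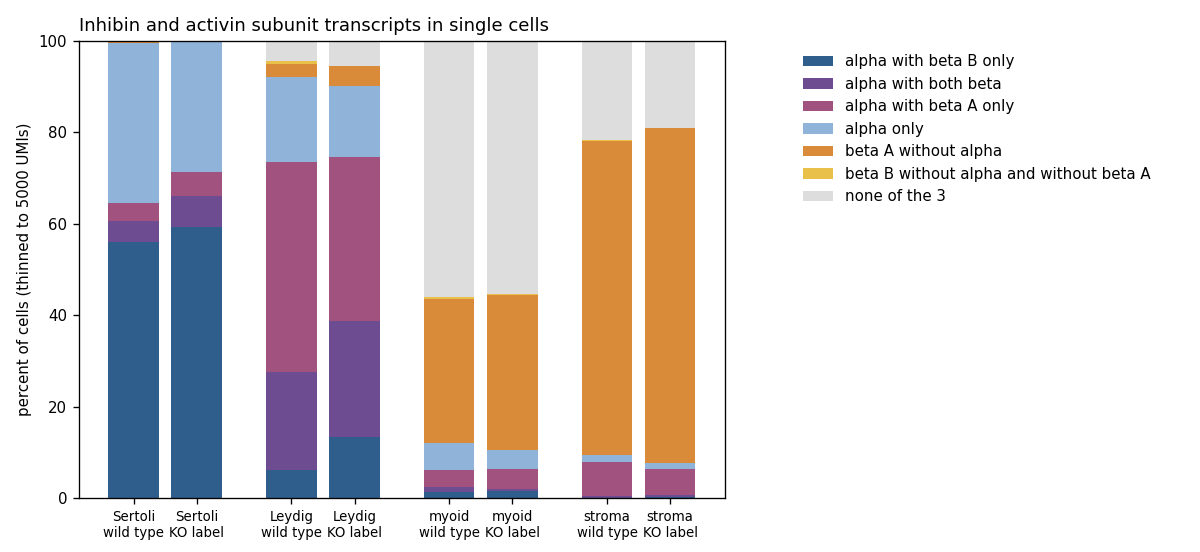
Subunit transcripts in single cells. Stacked bars give the percent of cells, thinned to 5000 UMIs, by which of *Inha* (alpha), *Inhba* (beta A) and *Inhbb* (beta B) had a UMI, for 4 gates and both libraries (KO label, the library labelled *Ddx5* knockout). Alpha with beta B leads in Sertoli cells at 56.0% and 59.3%, alpha with beta A in Leydig cells at 45.8% and 35.9%, and beta A without alpha in stroma at 68.7% and 73.1%.

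Single cells showed the same division. In Sertoli cells thinned to 5000 UMIs, alpha with beta B was the most frequent combination, in 56.0% (53.9 to 58.1) and 59.3% (56.9 to 61.7) of cells, and alpha without either beta subunit followed at 35.1% and 28.3%. In Leydig cells, alpha with beta A was found in 45.8% (38.3 to 53.4) and 35.9% (28.0 to 44.4), and alpha with both beta subunits in 21.5% and 25.4%. In stroma, beta A without alpha was found in 68.7% (67.2 to 70.3) and 73.1% (71.4 to 74.7), and alpha with beta A in 7.41% and 5.86%. In myoid cells beta A without alpha was found in 31.4% and 34.0%, and none of the 3 transcripts in 56.1% and 55.3%. Absence of a UMI at this depth does not show absence of the transcript, since the median thinned cell held 10 and 9 *Inha* UMIs in Sertoli cells but only 1 and 1 *Inhbb* UMI.

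*Fst*, which encodes the activin-binding protein follistatin, was a low transcript led by germ cells. Germ cells had 37.5 CPM (31.9 to 43.7) from 162 UMIs and 17.3 CPM (7.46 to 34.0) from 8 UMIs. At least 1 *Fst* UMI was found in 69 of 125 cells (55.2%) and 6 of 12 cells, at median depths of 34394 and 34528 UMIs, while 4.08% and 4.28% of Sertoli cells had one at depths of 13711 and 15847. Thinned to 5000 UMIs, 23.6% and 8.33% of germ cells and 2.84% and 2.14% of stroma cells kept a UMI, the second germ value being a single cell. Stroma was the next cell type with 8.0 CPM (7.14 to 8.94) and 4.92 CPM (4.19 to 5.73), which placed germ cells 4.68-fold (3.85 to 5.68) and 3.51-fold (1.49 to 7.09) above it. Sertoli cells had 3.98 and 3.66 CPM, and Leydig cells 2.99 and 3.48 CPM, which their intervals did not separate from Sertoli cells. Leaving out germ cells that passed the Sertoli gate gave 42.0 CPM (34.6 to 50.4) in wild type. Macrophages had 0 UMIs in both libraries, where 3 UMIs, the limit taken for a count of 0, would be 5.27 and 5.71 CPM, and the exact upper bounds were 6.48 and 7.03 CPM.

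Within stroma, *Fst* in wild type stood at 12.7 CPM (11.2 to 14.3) in the other cells of the same split, 3.08 CPM (1.99 to 4.55) in the *Tbata*, *Cyp26b1* and *Smoc2* cells, and 1.90 CPM (1.09 to 3.09) in the cells shared with the myoid gate. In the library labelled *Ddx5* knockout, these values were 6.74 CPM (5.65 to 7.98), 3.86 CPM (2.45 to 5.79) and 0.159 CPM from 1 UMI. The *Lum*, *Dpt* and *Aspn* cells had 0 UMIs in both libraries, where 3 UMIs would be 12.3 and 13.3 CPM and the exact upper bounds were 15.1 and 16.3 CPM, so they were not separated from the other cells.

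The receptor genes had low levels throughout. *Acvr2b*, a type II receptor gene, was highest in germ cells at 43.7 CPM (37.7 to 50.4) and 17.3 CPM (7.46 to 34.0), from 189 and 8 UMIs. Sertoli cells were next with 15.8 CPM (14.5 to 17.1) and 13.8 CPM (12.4 to 15.2). Germ cells stood above Sertoli cells 2.77-fold (2.34 to 3.27) in wild type, but the ratio of 1.26 (0.538 to 2.50) in the library labelled *Ddx5* knockout did not separate them. Sertoli cells in turn stood 2.97-fold (1.82 to 5.24) and 2.72-fold (1.93 to 3.94) above the next cell type, and Leydig, myoid, stroma and macrophage cells lay between 3.16 and 5.31 CPM with no neighbours separated.

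*Acvr2a*, the other type II receptor gene, lay between 6.74 and 17.3 CPM in every cell type. It had 10.4 and 11.0 CPM in Sertoli cells, 8.97 and 9.39 CPM in Leydig cells, 9.27 and 6.74 CPM in myoid cells and 7.90 and 8.26 CPM in stroma cells. Germ cells had 7.40 and 17.3 CPM, the second from 8 UMIs, and macrophages 14.1 and 9.52 CPM from 8 and 5 UMIs. Every interval between neighbours in this order included 1 in both libraries, while Sertoli cells stood 1.32-fold (1.14 to 1.54) and 1.33-fold (1.13 to 1.57) above stroma cells. In the library labelled *Ddx5* knockout, Sertoli cells were also 1.64-fold (1.20 to 2.26) and germ cells 2.56-fold (1.05 to 5.46) above myoid cells. In wild type, Sertoli cells were 1.13-fold (0.897 to 1.43) above them.

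*Acvr1b*, the type I receptor gene for activin, was led by Sertoli and germ cells. Sertoli cells had 6.41 CPM (5.62 to 7.28) and 7.32 CPM (6.37 to 8.38), and germ cells 6.48 CPM (4.30 to 9.36) and 2.16 CPM from 1 UMI. In wild type, Sertoli cells stood 3.68-fold (2.80 to 4.89) above stroma cells, which had 1.74 and 1.66 CPM. Leydig cells had 1.0 and 1.39 CPM from 3 and 4 UMIs, and myoid cells 1.0 and 1.40 CPM from 10 and 10 UMIs. Macrophages had 0 UMIs and 1 UMI.

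*Tgfbr3*, which encodes the inhibin coreceptor betaglycan, was high in Leydig, stroma and myoid cells and low in Sertoli cells, germ cells and macrophages. Leydig cells had 73.1 CPM (63.7 to 83.4) and 82.4 CPM (72.3 to 93.6), stroma cells 59.6 CPM (57.2 to 62.1) and 63.4 CPM (60.7 to 66.1), and myoid cells 56.8 CPM (52.2 to 61.7) and 58.3 CPM (52.8 to 64.2). Leydig cells were 1.23-fold (1.06 to 1.41) and 1.30-fold (1.13 to 1.49) above stroma cells, and stroma and myoid cells were not separated. Sertoli cells had 4.98 CPM (4.29 to 5.75) and 6.91 CPM (5.99 to 7.94), germ cells 8.10 and 6.48 CPM, and macrophages 10.5 and 13.3 CPM from 6 and 7 UMIs. After thinning, 30.5% and 38.7% of Leydig cells, 25.8% and 26.0% of stroma cells and 1.74% and 2.33% of Sertoli cells had a UMI. In cells passing 1 gate, *Tgfbr3* in stroma was 83.9% (70.3 to 101) and 74.0% (62.7 to 87.9) of its Leydig level. The wild-type interval thus did not separate stroma from Leydig cells. Both values lay above 5 of 5 Leydig markers, whose medians there were 0.251% and 0.231%.

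The genes most like each member were sought by Pearson's r of log2(CPM + 10) over the 12 sums of 6 cell types and 2 libraries, which share cells between gates, so r is a description. For *Inha* they were *Gja1*, the gap junction connexin gene, with r = 0.988, *Acsl4* and *Clu*. For *Inhbb* they were *Etnk2* (0.989), *Tinagl1* and *Gm42941*, for *Inhba* *Plpp3* (0.984), *Slc35a2* and *Pdgfd*, and for *Tgfbr3* *Rims4* (0.991), *G0s2* and *Cacnb2*. For *Fst* they were *Usp36* (0.970), *Angel1* and *Dtx2*, for *Acvr2b* *9530059O14Rik* (0.993), *Fgl1* and *Frmpd1*, for *Acvr1b* *Rasl10a* (0.985), *Ttf2* and *Fhl1*, and for *Acvr2a* *Gm42466* (0.920), *Gm48478* and *D630030B08Rik*. Between members, r was 0.959 for *Inha* with *Inhbb*, 0.871 for *Inhba* with *Tgfbr3*, and 0.828 for *Fst* with *Acvr2b*, but -0.06 for *Inha* with *Inhba*.

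*Inha* and *Inhba* were each lower in the cycling cells of their main cell type. Cycling cells had UMIs of at least 3 of *Mki67*, *Top2a*, *Cdk1*, *Birc5* and *Ccnb1*, and non-cycling cells of none. The 948 and 766 cycling Sertoli cells had 1690 and 1593 CPM of *Inha*, and the 474 and 272 non-cycling cells 2484 and 2288 CPM, ratios of 0.680 (0.667 to 0.694) and 0.696 (0.679 to 0.714). The fall was short of 1.5-fold, which 1.74% of genes reached downwards and 7.51% upwards in both libraries, and no member did. *Fst* passed it in opposite directions, at 1.55 (0.899 to 2.83) and 0.635 (0.364 to 1.16). *Inhbb* had ratios of 0.974 (0.912 to 1.04) and 1.11 (1.03 to 1.20). *Inhba* had ratios of 1.14 (0.992 to 1.32) and 1.18 (1.02 to 1.36), and its direction turned without called doublets, to log2 ratios of -1.29 and -1.04. Beside them, *Rhox8*, a homeobox gene of Sertoli cells, had ratios of 0.582 and 0.566, and *Amh*, which defined the gate, 0.831 and 0.815. Median depths were 18184 and 19981 UMIs in cycling and 11493.5 and 13035 in non-cycling Sertoli cells, and with each cell thinned to 5000 UMIs the log2 ratio of *Inha* was -0.52 and -0.52 (-0.56 and -0.52 before thinning), that of *Inhbb* -0.03 and 0.06, and that of *Inhba* 0.35 and 0.56.

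The same split in stroma was added after the Sertoli values were seen. *Inhba* stood at 492 and 450 CPM in 761 and 580 cycling cells and at 804 and 743 CPM in 1907 and 1651 non-cycling cells, ratios of 0.612 (0.593 to 0.631) and 0.606 (0.585 to 0.628). That was past 1.5-fold, which 6.41% of genes reached downwards and 10% upwards in both libraries. *Inhbb*, with 38 and 24 UMIs in the cycling cells, was also past it at 0.534 (0.360 to 0.777) and 0.334 (0.206 to 0.518), and no other member was past it in both libraries. In 1 library each, *Inha* (0.522 and 0.886), *Acvr2b* (1.66 and 0.847) and *Fst* (1.03 and 1.51) were.

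**Figure D4:**
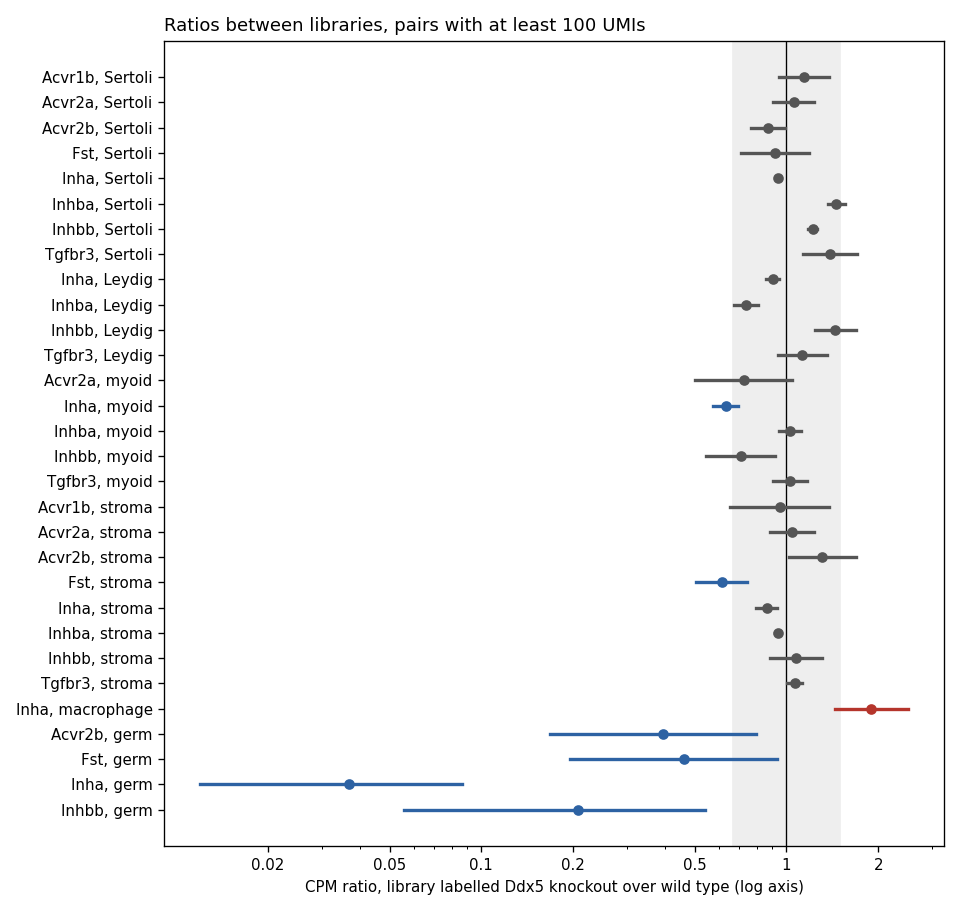
Ratios between the libraries. Each point is the CPM ratio of the library labelled *Ddx5* knockout to the wild-type library (log axis) for 1 of the 30 pairs of gene and cell type with at least 100 UMIs, with its exact 95% interval, and the grey band marks ratios within 1.5-fold. The 4 germ cell pairs lie lowest, *Inha* in macrophages is the only pair above the band, and all 12 Sertoli and Leydig pairs lie within it.

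Between the libraries, 30 pairs of member and cell type had at least 100 UMIs, and 7 passed 1.5-fold. No Sertoli pair did (0 of 8, where 4.54% of all genes tested there did) and no Leydig pair (0 of 4, against 2.95%). The members' median log2 ratio was 0.13 in Sertoli cells beside -0.01 over all genes, 0.01 in Leydig cells beside 0.00, and -0.00 in stroma beside -0.01. *Inha* in Sertoli cells had a ratio of 0.935 (0.924 to 0.945), and *Inhbb* of 1.22 (1.18 to 1.26). *Inhba* in Sertoli cells came nearest to the limit at 1.45 (1.36 to 1.55), beside a rise of the stroma marker sum of 1.51-fold in the same cells, and stood at 1.22 (0.991 to 1.49) once called doublets were left out. In Leydig cells *Inha* had a ratio of 0.901, *Inhba* of 0.735 (0.671 to 0.805) and *Inhbb* of 1.45 (1.24 to 1.69). The stroma marker sum in Leydig cells was 395 and 372 CPM, and 282 and 172 CPM without called doublets. Its part in the *Inhba* ratio was not tested. The Sertoli marker sum in Leydig cells was 386 and 465 CPM, and without the 7 and 12 cells that also passed the Sertoli gate it was 124 and 132 CPM and the *Inhbb* ratio was 1.35 (1.14 to 1.60). The beta A share was 80.1% and 67.2%. Haemoglobin and other erythroid transcripts summed to 5.31 CPM in wild-type Leydig cells and 1418 CPM in the others, 79.3 and 1060 CPM in myoid cells, and 76.5 and 1007 CPM in stroma, but to 2768 and 7.62 CPM in macrophages, and their part in these ratios was not tested.

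In stroma, *Fst* was lower under the *Ddx5* knockout label, at a ratio of 0.614 (0.505 to 0.745), the 1 of 8 members past 1.5-fold beside 2.97% of all genes. The sum of 6 germ markers in the stroma gate was 14.8 and 4.52 CPM, and without the 18 and 4 cells that also passed the germ gate it was 3.06 and 1.73 CPM and the *Fst* ratio was 0.637 (0.522 to 0.774), a setting chosen after the data were seen. *Inhba* in stroma had a ratio of 0.936 (0.919 to 0.953), *Tgfbr3* of 1.06 (1.0 to 1.13) and *Acvr2b* of 1.31 (1.02 to 1.68). In myoid cells, *Inha* had a ratio of 0.631 (0.576 to 0.692), the 1 of 5 members past 1.5-fold beside 2.18% of genes, and of 0.58 (0.44 to 0.76) without cells of the Sertoli gate. The median log2 ratio of the 5 members there was -0.46, beside -0.01 over all genes. That median was the value of *Acvr2a*, whose ratio of 0.727 (0.502 to 1.04) had an interval that included 1. *Inhbb* had a ratio of 0.708 (0.544 to 0.918), while *Inhba* and *Tgfbr3* had ratios of 1.03 and 1.03. *Fst* in myoid cells had 17 UMIs and 1 UMI, a ratio of 0.0829 (0.00198 to 0.529).

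In macrophages, *Inha* had a ratio of 1.90 (1.45 to 2.51), the only member there with 100 UMIs, beside 9.11% of genes past 1.5-fold. The direction turned without the 2 and 3 cells that also passed the Sertoli gate, to 0.424 (0.212 to 0.802) from 37 and 14 UMIs. The Sertoli marker sum in macrophages was 373 and 589 CPM with these cells and 28.1 and 31.5 CPM without them. The stroma marker sum in macrophages was 406 and 1053 CPM, and its part in the *Inha* ratio was not tested.

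In germ cells, all 4 members with 100 UMIs were lower under the *Ddx5* knockout label, but so were most genes: 70.2% of the genes tested passed 1.5-fold, 4062 of them downwards and 748 upwards. The ratios were 0.0368 (0.0119 to 0.0862) for *Inha*, 0.207 (0.0559 to 0.540) for *Inhbb*, 0.461 (0.196 to 0.930) for *Fst* and 0.395 (0.168 to 0.794) for *Acvr2b*, all against 12 cells. The members' median log2 ratio was -1.81 and that of all genes -0.84. Without cells of the Sertoli gate, *Inha* had a ratio of 0.333 (0.106 to 0.807) and *Inhbb* of 1.68 (0.402 to 5.33), while *Fst* had 0.412 (0.173 to 0.839) and *Acvr2b* 0.361 (0.153 to 0.732). The Sertoli marker sum was 1085 and 82.0 CPM in the germ gates as drawn. The germ marker sum was 1001 and 542 CPM there, although *Dnd1* (72.2 and 82.0 CPM) and *Piwil2* (147 and 237 CPM) went the other way. The stroma marker sum was 305 and 460 CPM. The part of these sums in the ratios was not tested.

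Lists of the pathway held 60 symbols for 59 other genes, since *Ctgf* is an older symbol of *Ccn2*. Of these genes, 58 had a row in the table, and 49 had 100 UMIs over the gated cells and defined no gate, which left out *Amh*. These lists were drawn up by function (ligands, receptors, binding proteins, SMAD proteins and repressors, response genes and regulators of inhibin transcription). Of the 49, 42 were highest in the same cell type in both libraries, beside 64.4% of all genes, and 15 stood at least 2-fold above every other cell type, beside 16.8% of all genes. With cell types at 0 UMIs set at 3 UMIs there were 13, beside 13.6%, since *Gdf9* and *Nr5a2* no longer passed. In Sertoli cells these were *Amhr2*, the receptor gene for anti-Müllerian hormone (173 and 144 CPM), *Fstl3*, a follistatin-like activin-binding protein (76.8 and 78.9 CPM), *Smad7*, an inhibitory SMAD (364 and 383 CPM), and *Fshr*, the FSH receptor gene (31.8 and 23.1 CPM). In Leydig cells they were *Nr5a1*, a nuclear receptor of steroidogenic cells (306 and 428 CPM), *Lefty2* and *Lefty1*, Nodal antagonists (41.8 and 52.9 CPM and 14.6 and 13.9 CPM), and *Bmp2* (27.9 and 18.1 CPM). Stroma led for *Tgfb2* (87.7 and 106 CPM) and *Wfikkn2* (12.1 and 16.2 CPM), and macrophages for *Tgfb1* (253 and 232 CPM), *Tgfbr1* (96.7 and 66.7 CPM) and *Id2* (237 and 259 CPM). The pair that no longer passed was led by Leydig cells for *Gdf9* (3.65 and 2.09 CPM) and by germ cells for *Nr5a2* (29.8 and 4.32 CPM), and the values under the *Ddx5* knockout label lay below the 5.71 CPM that 3 UMIs would be in macrophages there.

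The pathway genes past 1.5-fold between the libraries are given beside the share of all genes in each gate. In Sertoli cells 1 of 37 was higher, *Tgfb2* (9.36 and 14.5 CPM), whose direction turned without called doublets, to 2.76 and 1.24 CPM, a ratio of 0.449 (0.282 to 0.694) from 86 and 28 UMIs. The stroma marker sum in the Sertoli gate was 519 and 783 CPM with these doublets. Another 3 were lower, *Tgfb1* (13.7 and 8.60 CPM), *Id2*, an inhibitor of bHLH factors (65.6 and 41.8 CPM), and *Gata1* (3.76 and 2.38 CPM), beside 4.54% of all genes in either direction. In Leydig cells 2 of 23 were lower, *Bmp2* at a ratio of 0.649 (0.450 to 0.927) and *Id2* at 0.543 (0.422 to 0.696), beside 2.95% of all genes. In stroma 2 of 42 were lower, among them *Ccn2*, a matricellular protein gene, at 0.587 (0.536 to 0.643), beside 2.97%. In myoid cells 0 of 34 passed, beside 2.18%. In macrophages, beside 9.11%, 1 of 4 was lower, *Skil*, a SMAD co-repressor gene, at 0.664 (0.431 to 1.01), named here after its value was seen, and in germ cells 1 of 21 was higher and 17 were lower, among the 70.2% of all genes past the limit there.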

How the data were processed

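Per the labels and the submitters' processing notes, the authors made the UMI counts with Cell Ranger 3.1.0 on GRCm38, to which GFP and CRE were added. The annotation release is not given in the sources used here. The deposited table holds raw UMI counts of 12186 barcodes, before the study's quality filter on cells. Suffix 3 was read as wild type and suffix 4 as *Ddx5* knockout, because the filtered cell numbers (6329 and 4950) then matched those stated for the genotypes to within 1 cell, and CRE was found with suffix 4 only.

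UMIs were summed per gate and library (84263163 and 67558106 UMIs in all) with Python 3.11.15, NumPy 2.4.6 and SciPy 1.17.1, and scaled to CPM over all genes. A gene was compared if it had at least 100 UMIs over the cells compared. Size rules of 2-fold between gates and 1.5-fold between libraries replaced tests, because cells are not replicates. A count of 0 was set at 3 UMIs over the group where a limit is given, but not in the 2-fold rule, whose counts are given both ways. Doublets (Scrublet in scanpy 1.11.5, per library) were kept in the main values: 305 of 6329 and 316 of 4950 cells were called. Thinning to 5000 UMIs left out shallower cells, between 0 and 66 per gate and library. Droplet libraries carry free RNA, which was not removed. Ratios and intervals were tested on simulated counts. These were Poisson draws from rates shared by both libraries, except for genes made at a ratio of 2 or 0.5. Spread between cells, doublets and differences between libraries were not simulated, so the shares that follow cover counting error only. In the Sertoli gate simulation (12841 genes), 100% of genes made at a ratio of 2 and 98.9% of those at 0.5 passed the 1.5-fold rule, and 99.7% of unchanged genes did not. In the germ gate (6871 genes) these shares were 98.0%, 93.6% and 92.6%. All 8 members are described, with the 3 genes most like each by pattern, and pathway genes past a size rule, of which 1 is not reported here. The members and gene lists were chosen with earlier results of these data known. RefSeq promoters were matched by symbol (6 of 8 genes), and those of *Fst* and *Tgfbr3* were not used here. Alternatives covered cell filters, gates, doublets, scaling, cell weights, depth, count minimums, size rules and the pseudocount.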

Additional observations from a re-analysis of the deposited data

Results flagged for a closer look

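For 4 of the 8 genes, the ratio of the library labelled *Ddx5* knockout to the wild-type library lay on opposite sides of 1 in different cell types, with both intervals excluding 1. With 1 library per genotype the difference between cell types was not tested. The share of all genes with such opposite ratios was not computed, so the count of 4 is a description only. In germ cells, 4062 of the 6850 genes tested passed 1.5-fold downwards and 748 upwards. *Inha* had a ratio of 1.90 in macrophages and 0.0368 in germ cells. Sertoli marker sums differed in the same directions, from 373 to 589 CPM in macrophages and from 1085 to 82.0 CPM in germ cells, and without cells of the Sertoli gate both *Inha* ratios were below 1, at 0.424 and 0.333. *Inhba* had a ratio of 1.45 in Sertoli cells and 0.735 in Leydig cells, beside stroma marker sums of 519 and 783 CPM in Sertoli cells and 395 and 372 CPM in Leydig cells. Without called doublets, the Sertoli ratio of *Inhba* was 1.22 (0.991 to 1.49), an interval that included 1. The stroma marker sums in Leydig cells were then 282 and 172 CPM. *Inhbb* had a ratio of 1.45 in Leydig cells and 0.207 in germ cells, and the germ cell ratio became 1.68 (0.402 to 5.33) without cells of the Sertoli gate. *Acvr2b* had a ratio of 1.31 in stroma and 0.395 in germ cells, the latter from 8 UMIs in 12 cells.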

How the results depend on the processing

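No paired analysis was possible because the barcodes carry no library number within a genotype. For the same reason, leaving out replicates was not run. The count of members highest in the same cell type in both libraries (6) stayed within 6 to 8 over all alternatives. The count of members 2-fold above every other cell type was 1, and became 2 with a cell filter of 3000 genes and 5% mitochondrial UMIs (*Inhba* added), with cells passing 1 gate (*Inhba*), without Scrublet doublets (*Inhbb*) and after thinning to 5000 UMIs (*Acvr1b*). The count of pairs past 1.5-fold between libraries was 7, and became 4 after thinning (none in germ cells, where too few UMIs were left) and 4 under a 2-fold rule (the germ cell pairs). In cycling Sertoli cells the count of members past 1.5-fold was 0, and became 1 without Scrublet doublets (*Inhba*, log2 ratios -1.29 and -1.04) and 1 with CPM outside ribosomal protein and mitochondrial genes (*Inha*, -0.61 and -0.59). The log2 ratio of *Inha* in macrophages changed from 0.93 to -0.11 with stricter gates. Leaving cells of the Sertoli gate out of the other gates, chosen after the data were seen, gave 5 pairs past 1.5-fold, with *Acvr2a* in myoid cells added. *Inha* in macrophages and *Inha* and *Inhbb* in germ cells left the count because under 100 UMIs remained, not because their ratios fell within 1.5-fold. Of the 24 genes named as most like a member, 14 remained with log2(CPM + 1). With 12 germ cells in the library labelled *Ddx5* knockout, and 31 and 23 macrophages, values for these cells rest on few UMIs. The cause of the other changes was not tested.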
